A study of Mus musculus with 4 samples.

Results

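Transcripts of 7 chromatin regulators were followed in single mouse bone marrow cells: Ezh2, Ezh1, Eed and Suz12 of Polycomb repressive complex 2, the acetyltransferase genes Ep300 (p300) and Crebbp (CBP), and Kdm1a (the demethylase LSD1). They were chosen by name as regulators that act on the same enhancers and promoters as the MLL3 and MLL4 complexes. The rule used no measured value, though it was written with earlier results of these data known. All 7 had a row in the count tables. Their levels differed far more between cell classes than between the 4 libraries. Ezh2 and Suz12 were high in progenitors and low in late granulocyte-like cells, where Ep300 was at its highest, and the size of the Ezh2, Suz12 and Eed drop depended on where the late stage was cut. Against control, 0 of 7 members passed the fold used for calls in stem and progenitor cells, in granulocyte-monocyte cells or in all kept cells, where 2.79% to 28.0% of all genes did in a given direction, so that a count of 0 among 7 is no result about these genes.

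MLL3 and MLL4 (genes Kmt2c and Kmt2d) are the catalytic subunits of enhancer complexes that place the first methyl group on lysine 4 of histone H3. Polycomb repressive complex 2 places methyl groups on lysine 27 of the same histone, a mark of silenced genes, while p300 and CBP acetylate that lysine at active enhancers. LSD1 removes the methyl groups that MLL3 and MLL4 place on lysine 4. In blood, Ezh2 is known as the form of the catalytic subunit used by dividing progenitors and Ezh1 as the form kept by resting and mature cells, and LSD1 works with the repressors Gfi1 and Gfi1b during granulocyte and red cell maturation.

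Every library came from mouse bone marrow sorted for CD45.2 and Kit, taken 10 weeks after transplantation. CD45.2 is an allelic variant of CD45, the pan-leukocyte antigen, by which grafted cells can be recognised, and Kit is the stem cell factor receptor of blood progenitors. A single library stood for each group, titled control, Mll3SI, Mll4SI or Mll3/4SI, with the library names wt, mll3KI, mll4KI and dKI. The labels do not spell out SI or KI, and give no strain, allele, animal number, sex or batch, nor what 2 hashtag antibodies marked. After filtering, 31711 of 36459 barcodes were kept (6743 to 10189 per library), with a median of 12792 to 19180 unique molecular identifiers (UMIs, counted RNA molecules) per cell. Levels are given as CPM, a gene's UMIs per 1000000 UMIs summed over the cells of a class. They are not corrected for length, so different genes are not set against each other.

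Kit stood at 100.2 to 112.1 CPM and Ptprc, which encodes CD45, at 178.8 to 312.2 CPM in the 4 libraries. Kmt2c stood at 129.6 (control), 110.3 (Mll3SI), 147.5 (Mll4SI) and 122.8 CPM (Mll3/4SI), and Kmt2d at 41.3, 38.0, 35.1 and 33.3 CPM in that order. These counts do not check the labels, since the labels do not say that the alleles change RNA. The Y-linked Eif2s3y had 8037 UMIs in control, 7652 in Mll3SI and 0 in Mll4SI and Mll3/4SI, whereas Xist stood at 1150 CPM in Mll4SI, 1358 CPM in Mll3/4SI and under 1 CPM in control and Mll3SI. A difference of sex therefore cannot be told apart from the group in every Mll4SI and Mll3/4SI comparison below. Pairs of libraries shared 11 to 21 barcodes. With 1 library per group no difference has a replicate check, no test was run, and all intervals are 95% and cover counting error only.

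Cells were grouped by clustering without the 7 genes, and the clusters were named from markers. The class named for haematopoietic stem and multipotent progenitor cells (HSC/MPP-like) had 1113 control, 1148 Mll3SI, 1044 Mll4SI and 476 Mll3/4SI cells. Its raised markers included Hlf, Mecom, Meis1 and Cd34, with 11 of 17 HSC/MPP markers raised against all other cells. The class also had 5 of 10 megakaryocyte markers raised, and 1 of its clusters (377 cells) was led by the megakaryocyte gene Pf4. Granulocyte-like cells were split into early, intermediate and late stages. The late stage held 305 control, 153 Mll3SI and 221 Mll3/4SI cells but 3024 Mll4SI cells. The erythroid-like class also carried 8 of 12 basophil and mast cell markers. Another 1842 cells, 27.3% of the kept Mll3/4SI cells, formed unnamed clusters found almost only in that library and are described apart. Granulocyte-named clusters of 1091 cells (1087 from Mll3/4SI) and 228 cells (225 from Mll3/4SI) were also almost only from that library. They stayed in the intermediate stage, as did a cluster of 2819 cells, 2705 of them from Mll4SI.

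Ezh2, the catalytic subunit of Polycomb repressive complex 2, lies on the minus strand of chr6:47530139-47595341 (GRCm38). In HSC/MPP-like cells the control library held 274.3 CPM, Mll3SI 276.5, Mll4SI 264.9 and Mll3/4SI 251.0. Erythroid-like cells came next at 242.8 to 257.4 CPM, which overlapped the HSC/MPP range. Monocyte-like (221.6 to 236.3), intermediate granulocyte-like (205.4 to 216.9) and early granulocyte-like cells (169.6 to 180.4) followed in ranges that did not overlap. In late granulocyte-like cells control held 29.1 CPM of Ezh2, Mll3SI 19.1, Mll4SI 18.5 and Mll3/4SI 24.6. The log2 difference of late from HSC/MPP-like cells was -3.79 to -3.20 in the 4 libraries, with a mean of -3.51, against a median of -1.03 over 12441 genes.

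**Figure D1:**
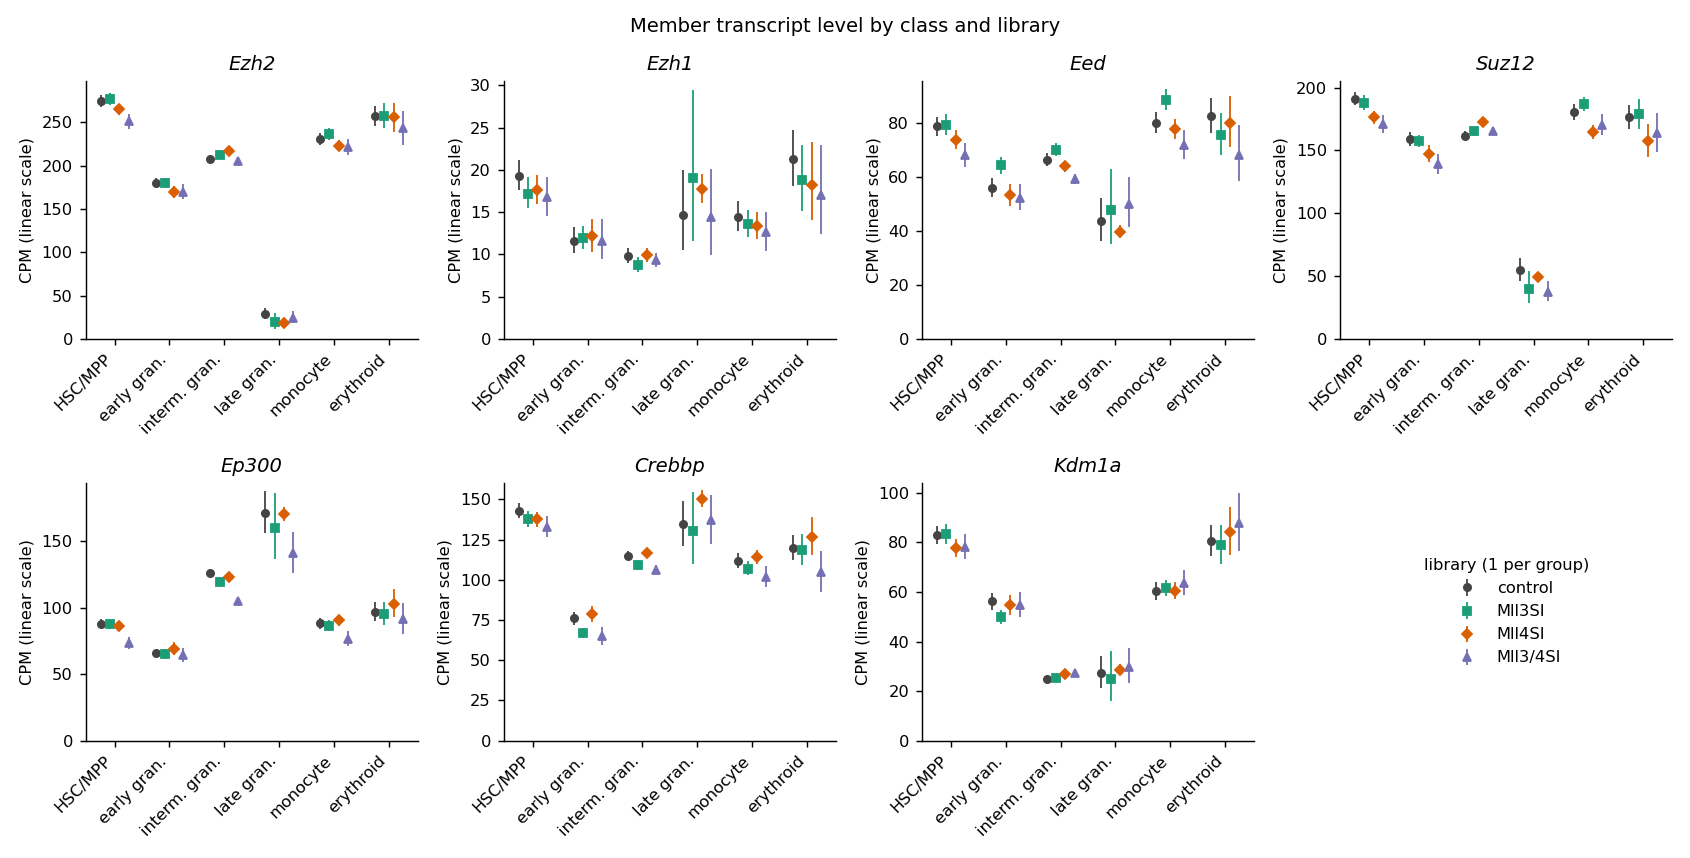
Level of each of the 7 genes (CPM, linear axis from 0, its own scale in each panel) in 6 classes; each point is 1 library and bars are 95% counting intervals. Ezh2 and Suz12 drop in late granulocyte-like cells in all 4 libraries, Ep300 is highest there, and the 4 libraries lie close together within a class.

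Suz12, the subunit that holds the complex together (chr11:79993106-80034123, plus strand), was likewise highest in HSC/MPP-like and lowest in late granulocyte-like cells. It was at 191.3, 188.0, 176.2 and 170.9 CPM in HSC/MPP-like cells of control, Mll3SI, Mll4SI and Mll3/4SI. In late granulocyte-like cells the same libraries gave 54.8, 40.0, 49.3 and 37.3 CPM, below the other 5 classes at this clustering. Unlike Ezh2, Suz12 was higher in monocyte-like than in erythroid-like cells in 4 of 4 libraries. Suz12 ranges of the HSC/MPP-like, monocyte-like, erythroid-like and intermediate granulocyte-like classes overlapped. Over the 24 units of class and library, Suz12 and Ezh2 had a Pearson r of 0.987 on log2(CPM + 1), which describes units that share libraries and the marked drop in 1 class.

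Eed, the subunit that binds methylated lysine 27 (chr7:89954654-89980983, minus strand), varied less. It was at 78.8, 79.4, 73.8 and 68.1 CPM in HSC/MPP-like cells in the order control, Mll3SI, Mll4SI and Mll3/4SI. It ranged from 39.8 to 50.02 CPM in late granulocyte-like cells, apart from the other 5 classes at this clustering. In Mll3SI, Eed was at 88.7 CPM in monocyte-like cells, the highest value among the 6 classes and 4 libraries.

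Ezh1, the alternative catalytic subunit (chr11:101191115-101226463, minus strand), did not share that drop at this clustering. In the order control, Mll3SI, Mll4SI and Mll3/4SI its HSC/MPP-like level was 19.3, 17.2, 17.6 and 16.8 CPM, and its late granulocyte-like level was 14.7, 19.1, 17.7 and 14.4 CPM. These ranges overlapped. The lowest Ezh1 levels were in intermediate granulocyte-like cells, at 8.79 to 9.92 CPM.

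The quotient of Ezh1 to Ezh2 UMIs differed between the stages as cut here. Its log2 value was -4.01 to -3.83 in HSC/MPP-like cells, -4.59 to -4.40 in intermediate granulocyte-like cells and -0.98 to 0.00 in late granulocyte-like cells. In B-lymphoid-like cells, of which only control (72 cells) and Mll3SI (183 cells) had at least 50, it was -6.24 and -5.81. Quotients of 1 gene pair are compared here between classes only, where gene length is the same.

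**Figure D2:**
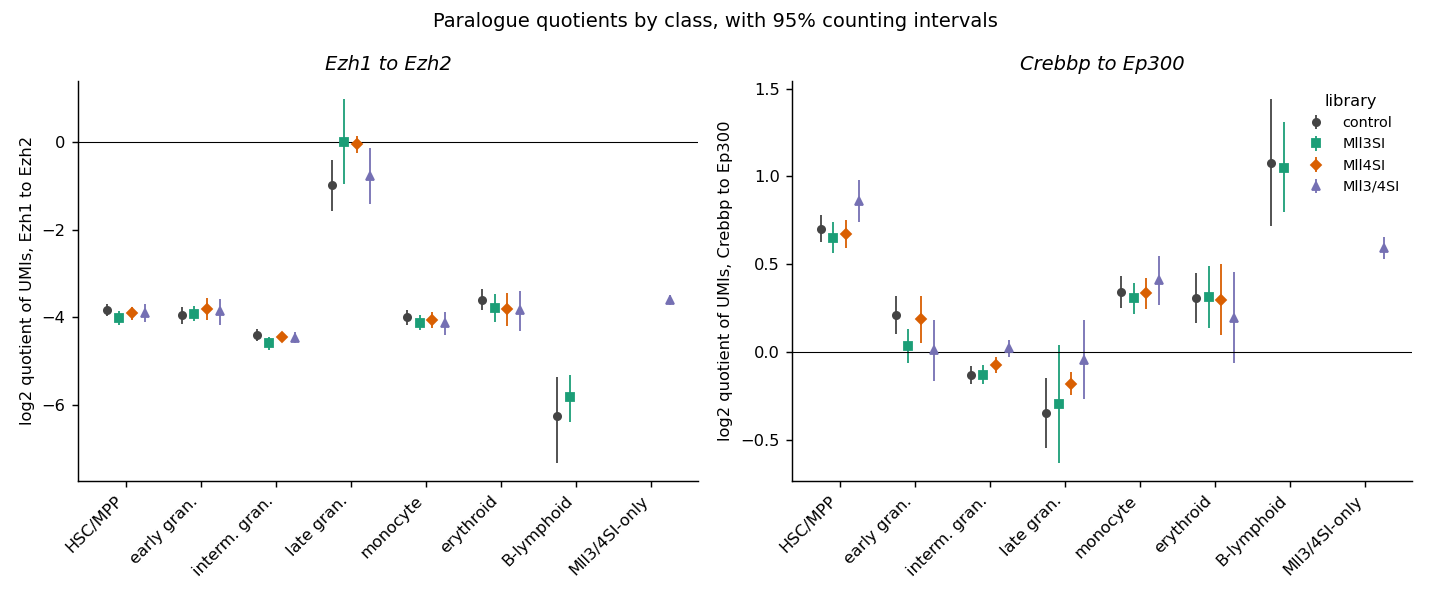
Log2 quotient of UMIs of Ezh1 to Ezh2 (left) and Crebbp to Ep300 (right) by class; points are libraries with at least 50 cells in the class and bars are 95% counting intervals. The Ezh1 to Ezh2 quotient lies between -0.98 and 0.00 in late granulocyte-like cells and below -3 in the other classes, and the Crebbp to Ep300 quotient is below 0 in late granulocyte-like cells and above 0 in HSC/MPP-like cells.

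The late class was made of 2 clusters, and Ezh2 was lower still in the smaller one. The larger cluster (3390 cells) held Ezh2 at 31.3, 20.1, 19.1 and 25.2 CPM in control, Mll3SI, Mll4SI and Mll3/4SI, and Ep300 at 157.1, 147.2, 168.3 and 133.4 CPM. The smaller cluster (313 cells), led by the neutrophil granule genes Mmp8 and Mmp9 and by Retnlg, held Ezh2 at 7.64, 9.52, 6.99 and 14.3 CPM and Ep300 at 305.5, 276.0, 213.9 and 264.7 CPM. It had 47 control, 24 Mll3SI, 220 Mll4SI and 22 Mll3/4SI cells. Suz12 had no 1 direction between them. It was lower in the smaller cluster in control (53.5 against 55.0 CPM) and Mll4SI (42.8 against 49.6 CPM), and higher in Mll3SI and Mll3/4SI.

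The size of the late-stage drops depended on where the late stage was cut. With finer clustering (Leiden resolution 2) the late class also took in a cluster of 1812 cells, 938 of them control and 34 Mll4SI. That cluster had Mki67, a gene of dividing cells, at 893.4 to 1040 CPM and Ezh2 at 219.4 to 234.8 CPM in the 4 libraries. The log2 Ezh2 difference of late from HSC/MPP-like cells was then -0.50, -0.37, -3.55 and -1.30 in control, Mll3SI, Mll4SI and Mll3/4SI. In the same order it was -0.23, -0.03, -1.74 and -0.84 for Suz12 and -0.10, 0.02, -0.87 and -0.36 for Eed. Ezh1 was then at -0.73, -0.65, 0.01 and -0.22, so in control and Mll3SI the quotient of Ezh1 to Ezh2 was not higher in the late class. Both other late clusters of that clustering held Ezh2 at 9.13 to 28.6 CPM. Low Ezh2 therefore went with the late clusters low in Mki67, at 0.00 to 79.3 CPM, at both resolutions.

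For Ezh2 and Suz12, which were alike in pattern, and for Ezh1, which differed from both, the RefSeq promoter bases before the start site (GRCm38.p6) are shown, each gene's own strand, without stretches that the GENCODE annotation places in an exon. The GENCODE gene of Ezh2 reaches to chr6:47595341, beyond its RefSeq window (chr6:47595031-47595280). The Ezh2 stretch shown therefore lies before the RefSeq start but within the GENCODE gene, outside its exons. Capitals mark a match to an E2F-type octamer. The octamers searched on both strands in the 250 bases before the start were TTTCCCGC, TTTGGCGC, TTTCGCGC and TTTGCCGC.
Ezh2, chr6:47595059-47595183, minus strand: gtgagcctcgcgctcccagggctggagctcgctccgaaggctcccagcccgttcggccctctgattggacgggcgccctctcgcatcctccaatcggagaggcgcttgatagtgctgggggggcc
Suz12, chr11:79992856-79993105, plus strand: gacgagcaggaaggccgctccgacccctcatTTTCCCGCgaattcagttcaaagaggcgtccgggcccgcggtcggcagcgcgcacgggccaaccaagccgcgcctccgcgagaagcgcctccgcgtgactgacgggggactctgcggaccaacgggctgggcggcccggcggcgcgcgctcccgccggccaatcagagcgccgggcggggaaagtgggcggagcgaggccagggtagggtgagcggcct
Ezh1, chr11:101226464-101226713, minus strand: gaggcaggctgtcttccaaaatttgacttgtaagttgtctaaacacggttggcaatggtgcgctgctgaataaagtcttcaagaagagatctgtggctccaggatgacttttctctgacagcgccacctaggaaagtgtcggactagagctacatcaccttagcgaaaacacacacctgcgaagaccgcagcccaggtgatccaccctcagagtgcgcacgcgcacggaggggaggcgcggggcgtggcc

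The window of Suz12 held 1 match, TTTCCCGC on the gene's strand from 219 to 212 bases before the start. The other 6 members, all of which had a window, held none. Of 32851 windows of the same length, 1.86% held at least 1 of the 4 octamers and 0.895% held TTTCCCGC. No other match overlapped that of Suz12, and a match describes these letters only. The GC content of the whole windows was 63.6% for Ezh2, 73.6% for Suz12 and 55.2% for Ezh1, against a median of 52.4%.

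Ep300, which encodes the acetyltransferase p300 (chr15:81585351-81652077, plus strand), rose along the granulocyte stages. Ezh2 also rose from the early to the intermediate stage, and ran the other way only from the intermediate to the late stage at this clustering. Ep300 stood at 65.7, 65.5, 69.2 and 64.5 CPM in early granulocyte-like cells of control, Mll3SI, Mll4SI and Mll3/4SI. The intermediate stage had 126.0, 119.4, 123.3 and 104.8 CPM, and the late stage 171.4, 160.1, 170.6 and 141.2 CPM. The 3 ranges did not overlap. Late cells were above HSC/MPP-like cells by a log2 difference of 0.86 to 0.97 in the 4 libraries, and by 0.76 to 0.99 with the finer clustering. Over the 24 units Ep300 and Ezh2 had an r of -0.72.

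Crebbp, the paralogue of Ep300 (chr16:4081328-4213997, minus strand), was lowest in early granulocyte-like cells, at 76.0, 67.0, 78.8 and 64.8 CPM in control, Mll3SI, Mll4SI and Mll3/4SI. It was at 142.8, 137.7, 137.6 and 133.1 CPM in HSC/MPP-like cells and at 134.6, 130.6, 150.4 and 136.9 CPM in late granulocyte-like cells, ranges that overlapped. Of the pair, Ep300 alone was thus higher in late granulocyte-like than in HSC/MPP-like cells in all 4 libraries. The log2 quotient of Crebbp to Ep300 was 0.65 to 0.86 in HSC/MPP-like cells and -0.35 to -0.04 in late granulocyte-like cells.

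Kdm1a, which encodes LSD1 (chr4:136550540-136602723, minus strand), was high in HSC/MPP-like cells, at 83.0, 83.5, 77.7 and 78.2 CPM in control, Mll3SI, Mll4SI and Mll3/4SI. Erythroid-like cells had 79.0 to 87.7 CPM, which overlapped. In the granulocyte series it reached its lowest levels at the intermediate stage, before Ezh2 did. The early stage had 49.8 to 56.2 CPM, the intermediate stage 24.9 to 27.2 CPM and the late stage 24.8 to 29.7 CPM, and the last 2 ranges overlapped.

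B-lymphoid-like cells were few, with 72 control, 183 Mll3SI, 44 Mll4SI and 38 Mll3/4SI cells. All 11 B-lymphoid markers, Ebf1 and Pax5 among them, were raised in them. Ezh2 was higher there than in the 6 larger classes, at 645.0, 729.8, 782.8 and 779.2 CPM in control, Mll3SI, Mll4SI and Mll3/4SI. Suz12 (208.2 to 232.7 CPM) and Crebbp (162.8 to 178.4 CPM) were also above their ranges in those classes, whereas Ep300 (70.8 to 84.8 CPM) was not.

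Cells with and without mitosis transcripts were compared within each library. After thinning each cell to 3000 UMIs, cells with at least 2 UMIs of 14 mitosis genes were called cycling and cells with none non-cycling, and levels were then taken from all their UMIs. In HSC/MPP-like cells this gave 652 cycling and 248 non-cycling control cells. Mll3SI had 645 and 286, Mll4SI 527 and 328, and Mll3/4SI 263 and 126, while 8 to 12 cells per library were too shallow. Cycling cells held more UMIs, with a median of 25255 against 16295 in control and the same direction elsewhere. The share of cycling cells was 59.1%, 56.6%, 51.1% and 56.7% in the 4 libraries.

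Ezh2 was higher in cycling cells in 4 of 4 libraries. Control had 313.5 against 171.6 CPM, Mll3SI 319.5 against 175.5, Mll4SI 315.3 against 169.4 and Mll3/4SI 284.8 against 159.2. The log2 ratio was 0.84 to 0.90, with 0.69 as the lowest interval bound, while the median over all genes was -0.05 to 0.00. Suz12 was higher by 0.49 to 0.54 and Eed by 0.15 to 0.41, also in 4 of 4 libraries, though the Eed intervals of Mll4SI and Mll3/4SI included 0. Ezh1 (-0.38 to 0.06), Ep300 (-0.01 to 0.18), Crebbp (-0.06 to 0.17) and Kdm1a (-0.03 to 0.19) did not have 1 direction in all libraries. In early granulocyte-like cells the Ezh2 and Suz12 ratios were 0.19 to 0.51 and 0.19 to 0.52. The S-phase gene Mcm5 was at -0.62 to -0.05 there, higher in cycling cells in 0 of 4 libraries. In HSC/MPP-like cells Mcm5 was at -0.03 to 0.30. Non-cycling therefore means without mitosis transcripts after thinning, not resting. Among late granulocyte-like cells only control and Mll4SI had at least 50 cells on each side. Ezh2 was low on both sides there, at 25.7 CPM in cycling and 24.3 CPM in non-cycling control cells. In Mll4SI it was at 29.1 and 15.3 CPM.

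**Figure D3:**
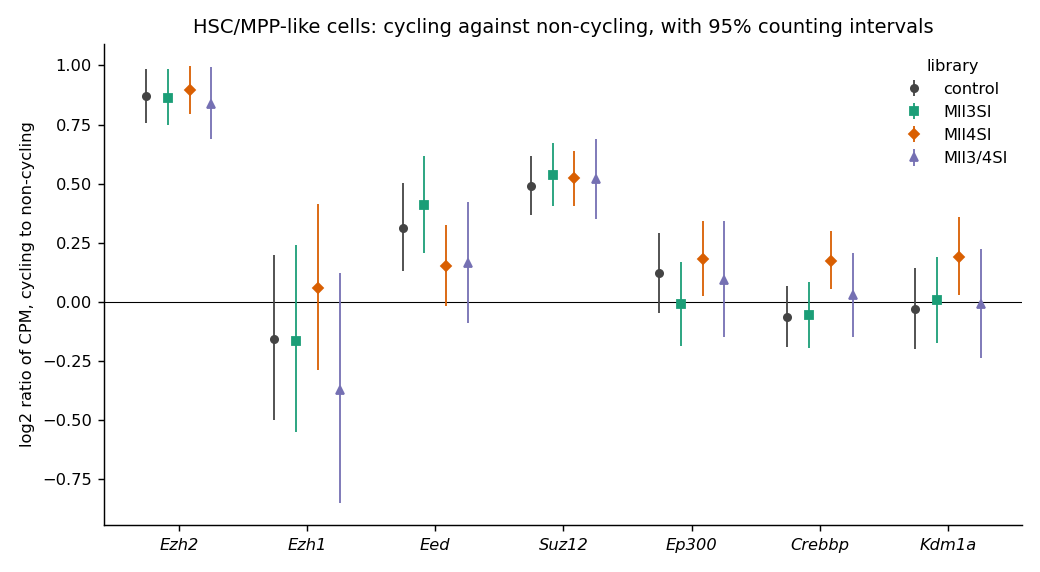
Log2 ratio of CPM of cycling to non-cycling HSC/MPP-like cells for the 7 genes; each point is 1 library and bars are 95% counting intervals. Ezh2 (0.84 to 0.90) and Suz12 (0.49 to 0.54) lie above 0 in all 4 libraries, and the Ezh1, Crebbp and Kdm1a points lie on both sides of 0.

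The same contrast appeared between clusters of the HSC/MPP-like class. In its largest cluster, with Mki67 at 36.1 to 65.8 CPM, Ezh2 was at 200.7 to 221.0 CPM in the 4 libraries. In the next, with Mki67 at 408.7 to 448.6 CPM, Ezh2 was at 300.3 to 335.5 CPM. Suz12 was at 146.4 to 168.9 CPM in the former and 198.5 to 218.1 CPM in the latter. The cycling split and these clusters both rest on proliferation, so they are not separate evidence.

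The 3 comparisons with control share the control library, and each is given on its own. A gene was called where its log2 ratio of CPM + 1 reached 0.3 in size. In HSC/MPP-like cells 0 of 7 members were called higher and 0 of 7 lower in each comparison. Of 12642 genes with at least 1 mean CPM, Mll3SI had 4.86% higher and 5.5% lower, Mll4SI 9.36% and 10.4%, and Mll3/4SI 8.51% and 9.15%. At these shares a count of 0 among 7 genes is near the background. Mll3SI had a median of -0.00 for the 7 log2 ratios and 0.01 over all genes. Mll4SI had -0.09 and -0.02, and Mll3/4SI -0.16 and -0.05.

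All 7 members were below control in HSC/MPP-like cells of Mll4SI and of Mll3/4SI, by less than the fold used for calls, where 54.1% and 60.4% of all genes were below. The members' ratios to control are of CPM without the added 1 unless the CPM + 1 scale is named. For Ep300 the Mll3/4SI library had 73.4 CPM and control 87.8 CPM, with 87.7 and 86.4 CPM in Mll3SI and Mll4SI. Its log2 ratio was -0.26 (-0.37 to -0.15) in Mll3/4SI, -0.00 in Mll3SI and -0.02 in Mll4SI. For Eed the Mll3/4SI ratio was -0.21 (-0.33 to -0.09), for Suz12 -0.16 (-0.24 to -0.09) and for Ezh2 -0.13 (-0.19 to -0.07). Crebbp was at -0.10 (-0.19 to -0.02). The Ezh1 (-0.45 to 0.03) and Kdm1a (-0.20 to 0.03) intervals included 0.

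In Mll4SI the HSC/MPP-like ratios lay between -0.13 and -0.02. Suz12 was at -0.12 (-0.18 to -0.06) and Kdm1a at -0.09 (-0.19 to -0.00), and the Ezh2 (-0.05) and Eed (-0.09) intervals also lay just below 0. In Mll3SI all 7 intervals included 0, with ratios from -0.17 for Ezh1 to 0.01 for Ezh2 and Eed. Differences of this size stand beside those between cells of the 2 hashtags within 1 library. There the median absolute log2 difference over the 7 genes and 4 libraries was 0.05, with 0.46 for Ezh1 in Mll3/4SI as the highest. Both hashtag groups of Mll3/4SI were below both of control for Ezh2, Eed, Suz12 and Ep300, and both of Mll4SI were for the same genes and Kdm1a. In Mll3SI both were below for Suz12. How many of all genes did the same was not counted, so these are no results particular to the members. Without the hashtag split, 54.1% of all genes were below control in Mll4SI and 60.4% in Mll3/4SI.

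**Figure D4:**
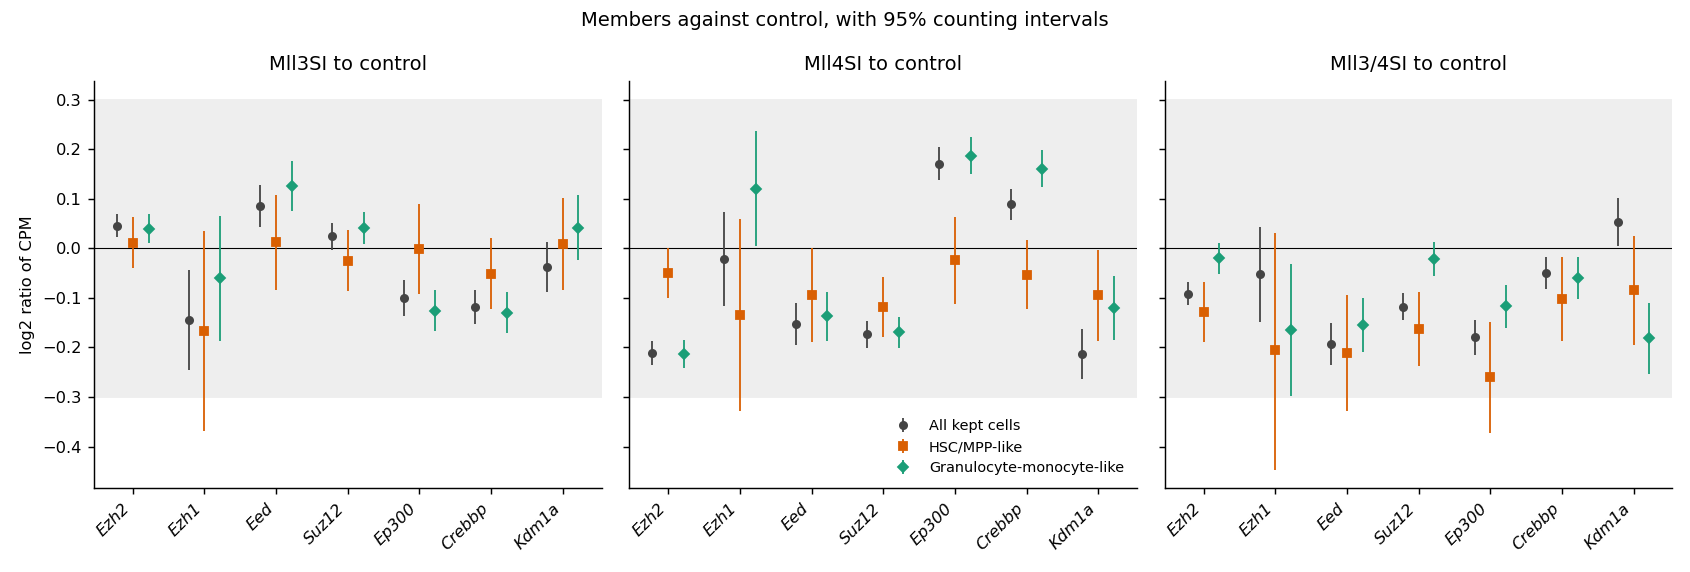
Log2 ratio of CPM to control for the 7 genes in all kept, HSC/MPP-like and granulocyte-monocyte-like cells, 1 panel for each comparison; bars are 95% counting intervals and the grey band spans the fold of 0.3 in size. All points lie inside the band, and in HSC/MPP-like cells of Mll3/4SI the Ep300 point (-0.26) is the lowest.

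Within cycling and non-cycling HSC/MPP-like cells, Ep300 in Mll3/4SI stayed at similar ratios, -0.29 (-0.43 to -0.15) and -0.26 (-0.53 to 0.00). Eed was at -0.29 (-0.43 to -0.15) in cycling and -0.14 (-0.43 to 0.14) in non-cycling cells. Ezh2 was at -0.14 (-0.21 to -0.07) and -0.11 (-0.29 to 0.07), and Suz12 at -0.13 (-0.22 to -0.04) and -0.16 (-0.35 to 0.04). In Mll4SI, Ezh2 was at 0.01 (-0.05 to 0.07) in cycling and -0.02 (-0.16 to 0.12) in non-cycling cells. Suz12 in Mll4SI was at -0.06 (-0.13 to 0.015) and -0.09 (-0.24 to 0.07). Eed in Mll4SI was at -0.15 (-0.27 to -0.04) and 0.01 (-0.21 to 0.23). Of 14 S-phase genes, 4 were called lower in HSC/MPP-like cells of Mll4SI and 4 in Mll3/4SI, where 10.4% and 9.15% of all genes were. The list medians were -0.23 and -0.20. Pcna, the replication clamp, was at -0.48 and -0.39. None of 14 mitosis genes was called in either library. The part of proliferation in the Ezh2 and Suz12 ratios was not tested beyond these values.

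Across the 6 larger classes Ep300 was below control in 6 of 6 in Mll3/4SI, from -0.28 in late to -0.03 in early granulocyte-like cells, with 4 intervals below 0. The late-stage value was -0.03 on the CPM + 1 scale with the finer clustering. In intermediate granulocyte-like cells, with 3275 Mll3/4SI and 3192 control cells, the Ep300 ratio was -0.27 (-0.32 to -0.22). Of these Mll3/4SI cells, 1087 and 225 lay in clusters with 0 control cells, so this ratio does not compare only like cells. Ezh2 was also below control in 6 of 6 classes, with 1 interval below 0. Of 12408 genes, 10.4% were below control in every class in this comparison. In Mll3SI, Crebbp was below control in 6 of 6 classes (-0.18 to -0.02) and Ep300 in 6 of 6 (-0.10 to -0.00), where 7.25% of genes were. With the finer clustering both late-stage values were above 0, at 0.04 and 0.01 on the CPM + 1 scale. Eed in Mll3SI was above control in 5 of 6 classes, with 0.20 (0.09 to 0.31) in early granulocyte-like cells. In Mll4SI, Eed was below control in 6 of 6 classes (-0.14 to -0.04), with 1 interval below 0, where 9.73% of genes were.

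In granulocyte-monocyte-like cells 0 of 7 members were called in either direction in each comparison. Of 11632 genes, Mll3SI had 6.23% higher and 4.87% lower, Mll4SI 8.21% and 23.8%, and Mll3/4SI 4.87% and 28.0%. The median of all genes lay at -0.11 in Mll4SI and -0.15 in Mll3/4SI, so member values are read against that shift. In the order control, Mll3SI, Mll4SI and Mll3/4SI, Ezh2 was at 201.2, 206.7, 173.4 and 198.3 CPM. The Mll4SI ratio was -0.21 (-0.24 to -0.19), or -0.10 relative to the all-gene median. Ep300 in Mll4SI was above control by 0.19 (0.15 to 0.22) and Crebbp by 0.16 (0.12 to 0.20).

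These pooled Mll4SI ratios differed from those of the intermediate stage. In the intermediate stage, with 4265 Mll4SI cells, Ezh2 was at 216.9 against 207.3 CPM in control, a ratio of 0.07 (0.03 to 0.10), and Ep300 was at -0.03 (-0.08 to 0.02). Of these Mll4SI cells, 2705 lay in a cluster with 19 control cells, so this stage does not compare only like cells. Ezh2 was below control in the other 5 classes, with 3 intervals below 0, among them -0.08 (-0.16 to -0.00) in early granulocyte-like cells. The late stage, low in Ezh2 and high in Ep300, gave 16.3% of the UMIs of the 6 classes in Mll4SI and 2.18% in control.

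Over all kept cells 0 of 7 members were called in either direction in each comparison. Of 12297 genes, Mll3SI had 2.79% higher and 5.19% lower, Mll4SI 7.98% and 24.5%, and Mll3/4SI 8.37% and 10.8%. Ezh2 had a ratio of -0.21 in Mll4SI, Kdm1a -0.21 and Suz12 -0.17, while Ep300 had 0.17. The class levels were then weighted by control's class shares, an alternative added after these values were seen. Over the 6 classes, with its own class mix and then with that of control, Mll4SI had Ezh2 ratios of -0.21 and -0.01. The pair was -0.18 and -0.04 for Suz12, -0.21 and -0.01 for Kdm1a, and 0.17 and -0.00 for Ep300.

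Kdm1a in Mll3/4SI also differed between mixes, with -0.28 under its own mix and 0.02 under that of control. The intermediate stage, low in Kdm1a, gave 63.2% of the UMIs of those classes in Mll3/4SI and 40.3% in control. The 6 classes leave out the unnamed clusters found almost only in Mll3/4SI, and over all kept cells the Kdm1a ratio was 0.05. Their intermediate stage still holds clusters with 1087 and 225 Mll3/4SI cells and 0 control cells. Weighting by class does not match the cells within a class. Ep300 in Mll3/4SI did not approach 0 under the class mix of control. Its ratio was -0.11 with its own mix and -0.22 with that of control. Eed in Mll3/4SI was at -0.20 and -0.17.

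**Figure D5:**
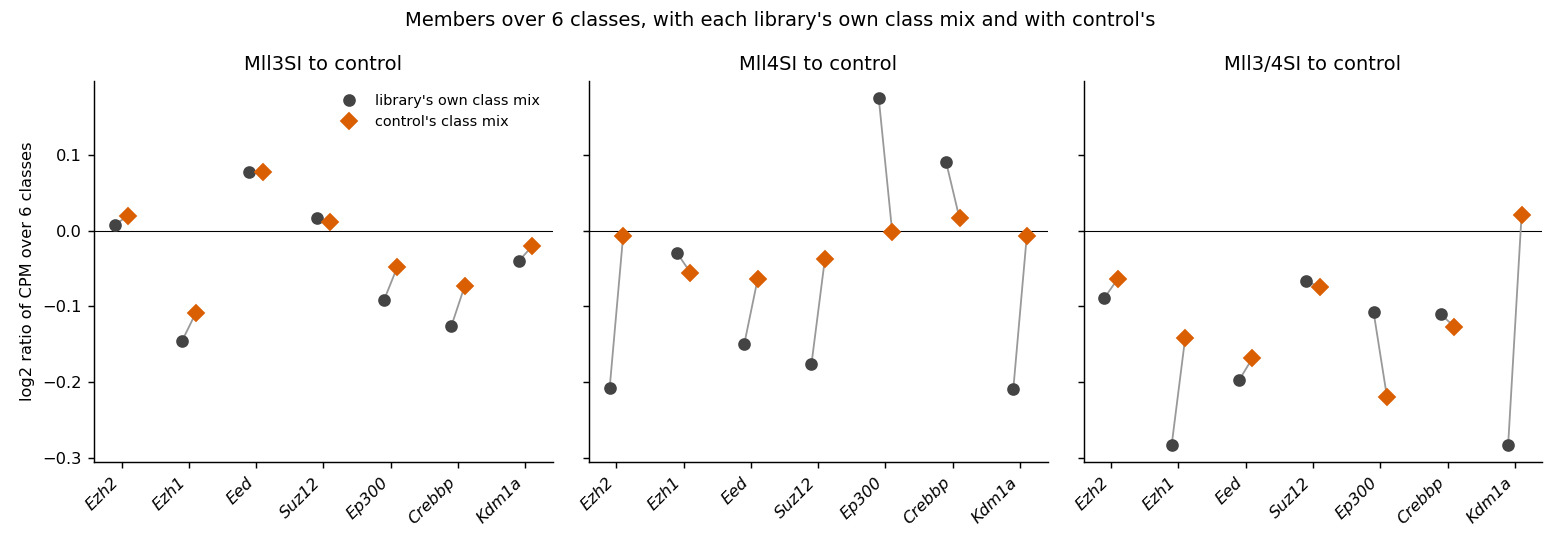
Log2 ratio of CPM to control over 6 classes for the 7 genes, with each library's own class mix (circles) and with control's class mix (diamonds), 1 panel for each comparison. In Mll4SI the Ezh2, Kdm1a and Ep300 ratios move to -0.01, -0.01 and -0.00 under the class mix of control, and in Mll3/4SI Ep300 moves from -0.11 to -0.22.

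In single classes, calls fell in the late granulocyte-like, erythroid-like and B-lymphoid-like classes, where counts were few and many genes passed the fold. In late granulocyte-like cells of Mll4SI 1 of 7 members, Ezh2, was lower, at -0.65 (-1.003 to -0.29), as were 23.6% of 10518 genes. In Mll3/4SI 1 of 7, Suz12, was lower there, at -0.55 (-0.95 to -0.17), with 24.9% of genes. In Mll3SI 2 of 7 were lower, Ezh2 (-0.61) and Suz12 (-0.45), with 24.6% of genes, and 1 was higher, Ezh1 (0.37), with 20.7%. The Mll3SI intervals included 0. Counts of 1 or 2 among 7 are near these shares.

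With the finer clustering, whose late class is cut elsewhere, the late-stage values moved. On the CPM + 1 scale Ezh2 in Mll4SI was at -3.10 in place of -0.63, and Suz12 in Mll3/4SI at -0.79 in place of -0.54. The 3 Mll3SI values changed sign. In Mll3/4SI Eed also changed sign, from 0.19 to -0.43, as did Ezh1, from -0.03 to 0.43. Suz12 (-1.62) and Eed (-0.82) in Mll4SI were also further below control.

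Ezh1 was lower in erythroid-like cells of Mll3/4SI (-0.32, -0.83 to 0.17), as were 20% of 12362 genes. It was higher in B-lymphoid-like cells of Mll3SI (0.60, -0.46 to 1.80), as were 20.8% of 12157 genes. In basophil and mast-like cells, separate only under the finer clustering, 2 of 7 members, Ezh1 (-0.36, -0.81 to 0.08) and Eed (-0.36, -0.59 to -0.15), were lower in Mll3/4SI, with 11.9% of 12285 genes.

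The unnamed clusters found almost only in Mll3/4SI held 1842 of its cells and 3 Mll4SI cells. They had 7 of 12 basophil and mast cell markers and 4 of 17 HSC/MPP markers raised, with Cpa3 at 819.9 CPM and Mecom, a stem cell transcription factor gene, at 8.01 CPM against 182.4 CPM in control HSC/MPP-like cells. They were given no cell type name. Their Ezh2 level was 207.6 CPM, their Suz12 level 143.4, their Eed level 61.0 and their Ezh1 level 17.1 CPM. Against HSC/MPP-like cells of the same library these were log2 differences of -0.27 (-0.33 to -0.21), -0.25 (-0.32 to -0.18), -0.16 (-0.27 to -0.04) and 0.03 (-0.19 to 0.26).

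Ep300 was at 80.5 CPM in those clusters, above HSC/MPP-like cells of the same library by 0.13 (0.03 to 0.24). Crebbp was at 121.4 CPM, below them by -0.13 (-0.21 to -0.05), but above early granulocyte-like cells of that library by 0.90 (0.78 to 1.03). Kdm1a was at 77.1 CPM, with a difference of -0.02 (-0.12 to 0.08) from the HSC/MPP-like cells. With 1 library these values cannot separate a cell state from that library.

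Other genes of the same pathways were counted in HSC/MPP-like cells by lists chosen by function, with ratios on the CPM + 1 scale. None of 9 Polycomb repressive complex 2 accessory genes was called in Mll3SI. In Mll4SI and Mll3/4SI the accessory gene Epop, an Elongin-binding partner of the complex, was higher, from 9.09 CPM in control to 13.6 CPM in both (0.54 in each). Phf19, a subunit that reads methylated lysine 36, was at -0.40 in Mll4SI, and its relative Phf1 was the 1 gene called lower in Mll3/4SI. Of 22 genes of Polycomb repressive complex 1, 4 were lower in Mll3/4SI, namely Bmi1, Pcgf1 (-0.41), Pcgf3 (-0.33) and Cbx6 (-0.31), and 0 were higher, with a list median of -0.12. In Mll4SI 1 was higher (Scml2) and 1 lower (Cbx6), and in Mll3SI none was called.

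Among the lysine 27 demethylase genes, X-linked Kdm6a was at 75.4, 81.6, 133.6 and 113.3 CPM in control, Mll3SI, Mll4SI and Mll3/4SI. UTX, its product, is a subunit of the MLL3 and MLL4 complexes. Its Y-linked partner Uty was at 99.96 and 105.9 CPM in control and Mll3SI, with 2 UMIs in Mll4SI and 0 in Mll3/4SI, where 0 UMIs allow up to 0.24 CPM. Kdm5c (50.04, 45.1, 70.3 and 67.2 CPM) and its Y-linked partner Kdm5d (26.4 and 28.9 CPM, then 0 UMIs in Mll4SI and Mll3/4SI, allowing up to 0.131 and 0.24 CPM) had the same pattern. These 4 genes follow the Y-linked and Xist values of the libraries, and sex and group cannot be told apart. Kdm6b, the autosomal lysine 27 demethylase gene, was not called, at -0.24 in Mll4SI and -0.20 in Mll3/4SI.

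Of 14 genes of LSD1 complexes and their partners, 1 was higher (Gfi1) and 3 were lower (Hdac1, Kdm1b and Rcor2) in Mll4SI, and 1 was lower in Mll3/4SI (Hdac1). Hdac1, a deacetylase bound to LSD1, was at 89.1, 96.5, 50.5 and 69.6 CPM in control, Mll3SI, Mll4SI and Mll3/4SI, ratios of 0.11, -0.81 and -0.35. Gfi1 was higher in Mll4SI, at 58.9 against 42.9 CPM (0.45). Of 21 acetyltransferase and bromodomain genes, 2 were higher in Mll4SI, Cited4 and Cited2, the latter a CBP and p300 partner, at 163.9 against 111.9 CPM (0.55). In Mll3/4SI 1 was higher (Cited4) and 1 lower, Kat6b, at 43.0 against 54.5 CPM (-0.34). None of the acetyltransferase and bromodomain genes was called in Mll3SI.

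Of 22 Mediator and remodelling genes, Chd7, a chromatin remodeller, was higher in Mll4SI (1.27, 34.4 against 13.7 CPM in control) and in Mll3/4SI (0.42, 18.6 CPM). Cdk8, the kinase of Mediator, was at -0.36 in Mll4SI and 0.37 in Mll3/4SI. The list medians lay at -0.07 and -0.10. Genes that Polycomb silences in development were nearly absent. Only 2 of 23 reached 1 mean CPM. Cdkn1c was called higher in Mll3SI and Mll4SI, and Igf2bp3 was at 8.29, 7.67, 9.92 and 8.74 CPM in the 4 libraries. All these counts are read against the shares of 4.86% to 10.4% given above for HSC/MPP-like cells.

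Genes most like each member were ranked by Pearson r of log2(CPM + 1) over the 24 units, among 8352 genes. For Ezh2 they were Cbx5 (0.994), Nup160, Mphosph9, Taf15 and Naa40. For Suz12 they were Ttf2 (0.994), Cep192, Rangap1, Taf15 and Ezh2. For Kdm1a they were Chd3 (0.991), Bahcc1, Chd4, Sox4 and Dcaf8, and for Ep300 Abi1 (0.982), Plcl2, Rlf, Add3 and Cop1. Those of Crebbp were Smg1 (0.965), Ptbp2, Dmtf1, Pip4k2a and Med13. Ezh1 had Ube3b (0.965), Rtn4, Cr1l, Tbc1d14 and Cdk12, and Eed had the lowest leading value, 0.927 for Ncbp1, before Ccdc88a, Ing3 and Nfyc. The units share libraries and classes, so these values only describe likeness of pattern.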

How the data were processed

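UMI counts per gene and cell barcode were deposited, made with Cell Ranger 7.1.0 and mm10 per the submitters' processing notes. Whether intronic reads were counted is not given in the sources used here. Barcodes under 1000 gene UMIs or over 10% mitochondrial UMIs were dropped, and the highest Scrublet scores were removed as doublets at 0.8% per 1000 cells. Joint clustering (Scanpy 1.11.5, 30 principal components, 15 neighbours, Leiden resolution 1) left out the 7 genes, all lists and markers. It gave 25 clusters, named where at least 3 markers of a class had a log2 fold of 1 and outnumbered those of the next class by 2. A cluster with over 95% of its cells from 1 library kept a name only if no other class had a raised marker, a rule added after the clusters were seen. Summed UMIs per class and library gave CPM, ratios with exact conditional intervals (SciPy 1.17.1) and calls at a log2 ratio of 0.3 with 1 CPM added. Genes named from each list were up to 3 with the largest ratio in HSC/MPP-like cells at 5 mean CPM, plus called genes of short counts, named after their values were seen. Alternatives covered scaling, pseudocount, fold, cell filter, doublets, hashtags, resolution and the cycling minimum. Class mix, the clusters of 1 library and class levels at resolution 2 were added after seeing the data. The ratio code was tested on simulated data. Promoters are from RefSeq, coordinates from GENCODE M21. The members and lists were chosen with earlier results of these data known. Hashtag thresholds were 116 and 323 UMIs. For each member the 5 genes most like it were named, except that 1 gene is not reported here.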

Additional observations from a re-analysis of the deposited data

How the results depend on the processing

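No paired analysis was possible because the labels give 1 library per group and no replicate numbers, and leaving out a replicate was not possible for the same reason. Of 216 counts of called members recomputed over 14 settings, all 0 as reported, 207 stayed at 0 and 9 changed. A larger fold, a larger pseudocount or a higher minimum level can only remove calls. The counts under those settings were fixed at 0 in advance and say nothing about stability. With median-of-ratios scaling 1 member, Ep300, was called higher in Mll4SI, both in all kept and in granulocyte-monocyte-like cells, with 14.1% and 14.0% of genes. With a fold of 0.2, 2 were lower in all kept Mll4SI cells (Ezh2 and Kdm1a), 2 in HSC/MPP-like cells of Mll3/4SI (Eed and Ep300) and 1 in granulocyte-monocyte-like cells of Mll4SI (Ezh2), with 38.3%, 18.9% and 36.6% of genes. With a mean over cells, 1 was lower in all kept Mll4SI cells (Ezh2) and 2 in its granulocyte-monocyte-like cells (Ezh2 and Suz12), with 38.1% and 33.4% of genes. In HSC/MPP-like cells 1 member, Ezh1, was lower in Mll3/4SI with only Hashtag1 cells and 1, again Ezh1, in Mll3SI with only Hashtag2 cells, with 13.1% and 10.1% of genes.

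Of 1659 single ratios, 162 moved beyond their counting interval. Among ratios past the fold as reported, 4 changed sign, all in late granulocyte-like cells of Mll3SI: Ezh1 to -0.0329 with a mean over cells, and Ezh2 to 0.16, Ezh1 to -0.0484 and Suz12 to 0.16 at resolution 2. Smaller ratios changed sign there too, such as Eed in Mll3/4SI, from 0.19 to -0.43. The mean log2 difference of late from HSC/MPP-like cells was 1.01 for Ep300 with a mean over cells, and -1.43 for Ezh2 and 0.85 for Ep300 at resolution 2, where the late class took in a cluster of dividing cells. With a cycling minimum of 4 UMIs the mean cycling ratio was 0.93 for Ezh2 and 0.57 for Suz12. The number of cells limits the late, erythroid-like and B-lymphoid-like classes, and 1 library per group limits every comparison with control.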
